A study of Mus musculus with 6 samples.

Results

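Gnaq, Arrb1, Prkcb, Camkk2 and Cyth1 encode signalling proteins that act below cell surface receptors. Their transcripts carried 39 of the 6270 Argonaute (Ago) footprints measured in mouse macrophages. A footprint is a short stretch of RNA that was cross-linked to Ago, the protein that carries microRNAs (miRNAs) to their targets. The members are all footprints that lay on 1 of these 5 genes on the gene's own strand, together with 1 footprint that started 21 nt past the annotated end of Camkk2. Gnaq held 17 of them, Arrb1 13, Prkcb 6, Camkk2 2 and Cyth1 1. The genes were chosen by measured values of this table, their number of footprints, occupancies and ratios of KO over WT. These values are therefore described and not tested.

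The 6 libraries were Ago HITS-CLIP libraries, made by immunoprecipitating Ago with the antibody 2A8 from bone-marrow-derived macrophages (BMDM) and sequencing the bound RNA. Of these, 3 came from Apobec1-/- mice (APOBEC1 KO, here KO) and 3 from wild-type (WT) littermates, all C57BL/6 and aged 6 to 12 weeks. Both genotypes were cultured alike, for 7 days in M-CSF (20 ng/mL, with later feeds at 40 ng/mL), and neither received a stimulus in the labels. APOBEC1 is an enzyme that deaminates cytidines of mRNA to uridines, and its gene is inactivated in all cells of the KO mice. Each footprint has 1 Ago occupancy per genotype, a ratio of footprint signal to the RNA-Seq expression of its transcript that the authors combined over 3 libraries. The table also gives, for each genotype, how many libraries held it. The table gives no value per library, so no difference below has a replicate check or a p-value, and no spread is available to say which neighbouring levels differ. Read depth is unknown.

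Of 12 macrophage marker symbols, in which Emr1 and Adgre1 name the same gene, 9 carried footprints. Among them were Csf1r, the M-CSF receptor, and Emr1, which encodes F4/80. The marker lists of T cells, B cells, neutrophils and fibroblasts carried 0 footprints. Every footprint had entered the table through at least 2 libraries of 1 genotype. Of all footprints, 40.1% were held by at least 2 KO libraries and 94.9% by at least 2 WT libraries, so entry was mostly through WT.

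As background, receptors coupled to Gq activate its alpha subunit, the product of Gnaq, which switches on phospholipase C beta. The enzyme makes inositol trisphosphate, which releases calcium, and diacylglycerol. Diacylglycerol and calcium together activate protein kinase C beta, the product of Prkcb, and calcium bound to calmodulin activates the kinase encoded by Camkk2, which phosphorylates calmodulin kinases and AMPK. Arrb1 encodes a beta-arrestin, which binds phosphorylated receptors, uncouples them from G proteins and brings them into endocytosis. Cyth1 encodes cytohesin-1, an exchange factor that loads ARF GTPases with GTP. Chemoattractant, complement and purine receptors of macrophages use this machinery. A miRNA usually pairs with its target through its seed, bases 2 to 8.

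Sites for miRNAs were looked for in the footprints as exact 7-nt matches to the seed, on the footprint's strand. One representative was used for each of 30 miRNA families named from general knowledge of immune cells, and all 30 were found in RefSeq (build GRCm38.p6). Among the members 11 of 39 footprints held a site, 28.2%, against 22.1% of all footprints in the table. By gene these were 6 of 17 in Gnaq, 3 of 13 in Arrb1, 2 of 6 in Prkcb and 0 of the 3 in Camkk2 and Cyth1. They belonged to 11 families with different seeds. The mature sequences of 9 of them are shown, with the seed in capitals, to be read against the matched sites printed after them.
miR-19b-3p: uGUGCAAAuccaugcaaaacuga
miR-92a-3p: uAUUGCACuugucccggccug
miR-130a-3p: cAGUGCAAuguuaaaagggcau
miR-142a-3p: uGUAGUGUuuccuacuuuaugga
miR-155-5p: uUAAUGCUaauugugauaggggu
miR-23a-3p: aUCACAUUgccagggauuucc
miR-148a-3p: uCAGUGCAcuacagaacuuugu
miR-22-3p: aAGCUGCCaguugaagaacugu
miR-27a-3p: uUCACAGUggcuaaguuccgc

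The matched stretches of the Gnaq, Arrb1 and Prkcb transcripts follow, each 22 nt long and written 5′ to 3′ on the transcript's strand, with the bases that pair with the seed in capitals. The last base lies opposite base 1 of the miRNA, and an A there makes an 8-nt site. All 3 genes lie on the plus strand, and coordinates are mouse build mm9. Footprints are numbered from the stop codon within each gene.
Gnaq footprint 4, miR-130a-3p, chr19:16458613-16458634: ttgtcttgtctcacTTGCACTa
Gnaq footprint 5, miR-142a-3p, chr19:16458826-16458847: tgatacgccaacagACACTACa
Gnaq footprint 6, miR-155-5p, chr19:16459038-16459059: tgtctcaaaatgtcAGCATTAa
Gnaq footprint 6, miR-23a-3p, chr19:16459046-16459067: aatgtcagcattaaAATGTGAa
Gnaq footprint 8, miR-92a-3p, chr19:16459494-16459515: ttggaattctccatGTGCAATt
Gnaq footprint 10, miR-92a-3p, chr19:16459829-16459850: tgcctgtaggtataGTGCAATt
Gnaq footprint 11, miR-19b-3p, chr19:16460140-16460161: gctgtctaaaatcaTTTGCACa
Arrb1 footprint 1, miR-22-3p, chr7:106750102-106750123: taggtgacagttttGGCAGCTa
Arrb1 footprint 9, miR-148a-3p, chr7:106753402-106753423: atgtccagccctctTGCACTGa
Prkcb footprint 2, miR-19b-3p, chr7:129772450-129772471: tgtgggaatgtttaTTTGCACt
Prkcb footprint 5, miR-27a-3p, chr7:129774646-129774667: taaagctgctgtgaACTGTGAc

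Of the 16 sites in all, 7 were 8-nt sites and 14 lay within 20 nt of the centre of their footprint. The members had a median length of 69 nt, so that window takes in much of a footprint. The 14 therefore do not show central placement, and neither count was set against the sites of the whole table. The sites for miR-155 and miR-23 in Gnaq footprint 6 stand next to each other, separated by a single base. In Prkcb footprint 2 the site for miR-19b-3p shares all but its first base with a site for miR-130a-3p. Arrb1 footprint 9 likewise held overlapping sites for miR-130a-3p and miR-148a-3p, and a miR-24-3p site close by. Arrb1 footprint 8 held overlapping sites for miR-27a-3p and miR-101a-3p. A match is a property of the sequence, and which miRNA was bound at a footprint was not measured in the table.

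Gnaq, the alpha subunit of Gq, carried its 17 footprints in a single 3′ UTR of 4072 nt on chromosome 19. Only 4 of the 2222 genes with footprints held more. The footprints covered 31.0% of the UTR, with gaps of 21 to 520 nt (median 138 nt). The 17 values summed to 19.3 in KO, against 14.4 in WT (log2 ratio of KO over WT 0.42). Per kb of 3′ UTR this was 4.74 in KO and 3.54 in WT.

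The sum hides footprints that went in opposite directions. With a log2 ratio of at least 1 taken as a difference, 6 Gnaq footprints were higher and 5 were lower in KO, where 18.9% of all footprints in the table were higher and 24.2% lower. Of the 6 higher ones, footprints 8, 13 and 17 were held by only 1 KO library each. Gnaq held a larger share of both kinds, 35.3% higher and 29.4% lower, but this compares 17 footprints of a chosen gene with the table and was not tested.

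The strongest Gnaq footprint was number 11, at 16460124 to 16460209, with an occupancy of 4.30 in KO and 1.71 in WT (log2 ratio 1.33). It was held by 3 KO and 2 WT libraries and contains the 8-nt miR-19 site shown above. Footprint 17, the last before the end of the UTR, stood at 2.56 in KO and 1.13 in WT (1.18) and was held by 1 KO and 2 WT libraries. It is 1 of 2 member footprints that hold the polyadenylation hexamer AATAAA on their own strand, present in 7.00% of all footprints. Footprint 2, at 16458372 to 16458437, had 2.43 in KO and 0.861 in WT (1.49) in 3 KO and 2 WT libraries, and no site of the 30 families. The highest Gnaq ratio was that of footprint 7, at 16459251 to 16459329, with 0.934 in KO and 0.329 in WT (1.50).

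Higher and lower footprints alternated along the UTR in runs of 1 to 5 neighbours, and most runs were a single footprint. Footprints 7 to 11, between 1370 and 2328 nt after the coding sequence, were all higher in KO, with a sum of 8.77 in KO and 4.31 in WT. Footprints 14 to 16, between 3129 and 3470 nt, were all lower, with 0.381 in KO and 1.38 in WT. Footprints 5 and 6 were lower too, with 0.457 in KO and 1.13 in WT. Footprint 14, at 16461010 to 16461072, had the lowest ratio of the gene, with 0.150 in KO and 0.756 in WT (-2.32).

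**Figure D1:**
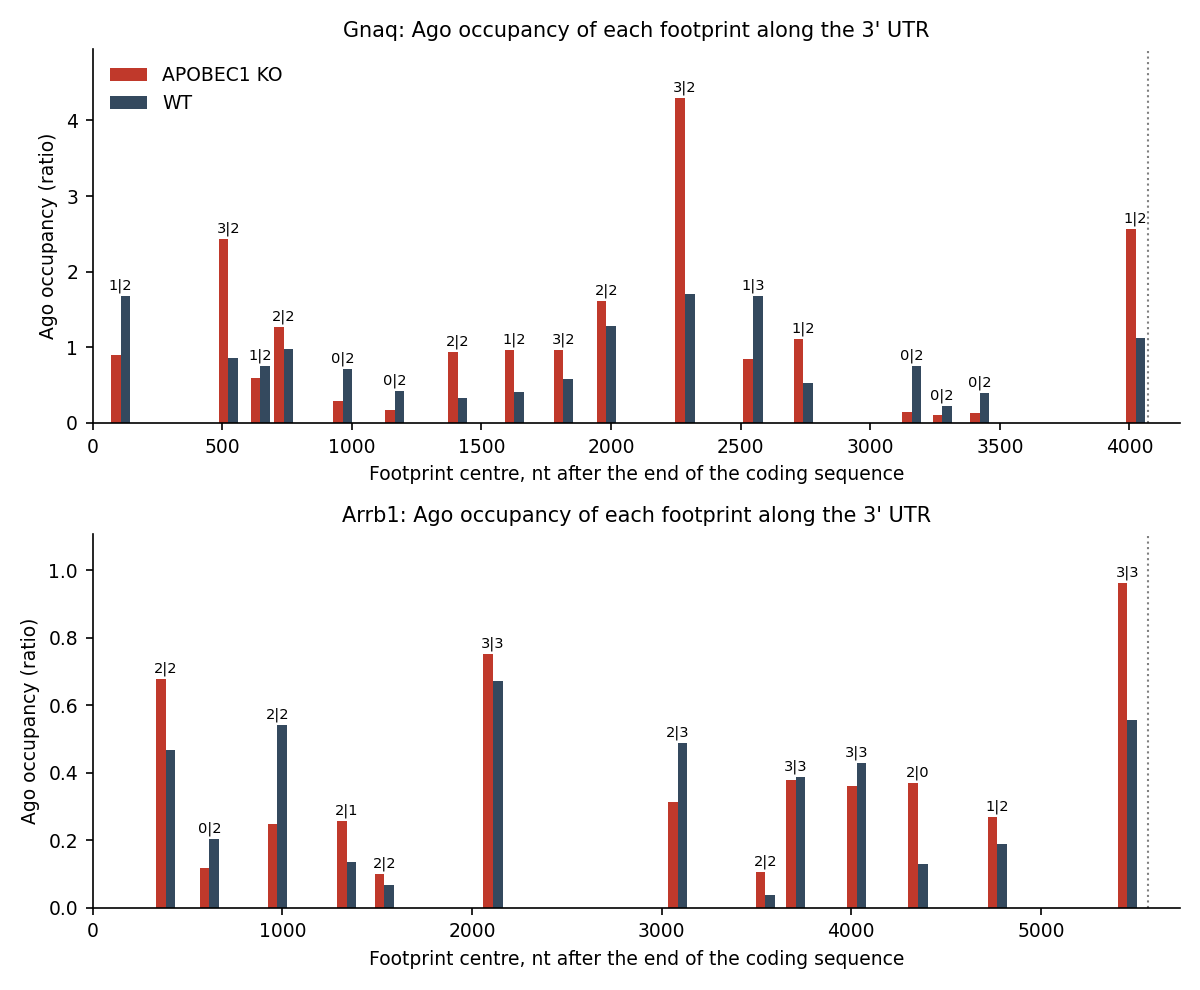
Ago occupancy (ratio, no unit) of each footprint of Gnaq (top) and Arrb1 (bottom) against the distance of its centre from the end of the coding sequence in nt, with KO bars left of WT bars. The labels give the number of KO and WT libraries that held the footprint, the dotted line marks the end of the annotated 3′ UTR, and there are no error bars because each genotype has 1 combined value. Gnaq footprints 7 to 11 are higher in KO, and footprints 5, 6 and 14 to 16, each labelled with 0 KO libraries, are lower.

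The 5 Gnaq footprints that were lower by this measure each had a KO value shared exactly with other footprints of the table. They were the 5 that 0 KO libraries held, and each was held by 2 WT libraries. Among them are footprint 5, with the miR-142a-3p site, at 0.290 in KO and 0.711 in WT (-1.29), and footprint 6, with the miR-155-5p and miR-23a-3p sites, at 0.167 in KO and 0.421 in WT (-1.32). Over the table, footprints held by 0 KO libraries were lower by a log2 ratio of at least 1 in 60.2% of cases and higher in 2.45%. The other 12 Gnaq footprints summed to 18.5 in KO, against 11.9 in WT (0.63), with 9 higher and 3 lower. Other footprints with sites were higher in KO. Footprint 8 with a miR-92a-3p site had 0.966 in KO and 0.406 in WT, footprint 10 with another had 1.61 in KO and 1.28 in WT, and footprint 4 with the miR-130a-3p site had 1.26 in KO and 0.978 in WT.

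Arrb1, which uncouples receptors from G proteins, had weaker footprints that were found in more KO libraries. Its 13 footprints lay in a 3′ UTR of 5565 nt on chromosome 7, and 22 genes held more. The 13 values summed to 4.91 in KO and 4.30 in WT (log2 ratio 0.19), and per kb of 3′ UTR 0.882 in KO and 0.774 in WT. At least 2 KO libraries held 11 of the 13, and at least 2 WT libraries also held 11. Of all footprints, 40.1% were held by at least 2 KO and 94.9% by at least 2 WT libraries. Of the 13, 8 were higher in KO, 2 of them by a log2 ratio of at least 1, and 5 were lower, 1 of them by that much. The shares past that ratio were 15.4% higher and 7.69% lower, against 18.9% and 24.2% of all footprints. The difference was not tested.

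Of the members 6 of 39 were held by all 6 libraries, and of all footprints in the table, 5.89%. In Arrb1 they were 4 of 13. Footprint 13, at 106755141 to 106755203 near the end of the UTR, was the strongest, with 0.962 in KO and 0.556 in WT (0.79). Footprint 6, at 106751790 to 106751863, had 0.750 in KO and 0.673 in WT (0.16). Footprints 9 and 10 were close to equal, at 0.377 in KO and 0.388 in WT (-0.04), and at 0.360 in KO and 0.428 in WT (-0.25). Footprint 9 holds the overlapping miR-130a-3p and miR-148a-3p sites. None of these 4 reached a log2 ratio of 1 in either direction.

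The Arrb1 footprints past a log2 ratio of 1 in either direction lay below the table's median of mean occupancy, 0.425. So did footprints 9 and 10, and only 3 of the 13 Arrb1 footprints reached that median. The part of weak signal in these ratios was not tested. Footprint 11, at 106754034 to 106754101, had 0.371 in KO and 0.130 in WT (1.50), in 2 KO and 0 WT libraries. Footprint 8, with the miR-27a-3p and miR-101a-3p sites, had 0.106 in KO and 0.0377 in WT (1.45), in 2 libraries of each genotype. The lowest ratio was that of footprint 3, at 106750657 to 106750721, with 0.249 in KO and 0.541 in WT (-1.11), also in 2 libraries of each. Footprint 1, with the 8-nt miR-22-3p site, was stronger and had 0.677 in KO and 0.466 in WT (0.54). A shorter annotated Arrb1 transcript ends after 2368 nt of 3′ UTR. The 6 footprints within that stretch summed to 2.15 in KO and 2.09 in WT (0.04), and the 7 beyond it, which only the longer transcript holds, to 2.76 in KO and 2.22 in WT (0.31).

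Prkcb, the kinase that diacylglycerol and calcium activate, differed from the other genes in where its footprints lay. Of its 6 footprints 5 were in an annotated intron, and the whole table has 27 such footprints. The Prkcb gene ends in alternative last exons, and these 5 lay between 31 and 2521 nt past the annotated end of the transcript that ends first, whose 3′ UTR is 844 nt long. In the 5848 nt from 100 nt before that end to the end of the gene there are 7 polyadenylation hexamers (AATAAA or ATTAAA, both searched on the gene's strand alone). Of these the AATAAA at 129774983 and the ATTAAA at 129775487 and at 129777892 lie after the last of the 5 footprints. The sixth footprint, at 129777600 to 129777683, lay in the 3′ UTR of the longer transcript.

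The 6 values summed to 4.01 in KO and 5.26 in WT (log2 ratio -0.39), with 2 footprints higher and 4 lower in KO. The strongest was footprint 4, at 129774358 to 129774423, held by all 6 libraries, with 1.55 in KO and 1.88 in WT (-0.28). Footprint 5, with the miR-27a-3p site, had 0.858 in KO and 1.08 in WT (-0.33), in 2 libraries of each genotype. Footprint 3, at 129774045 to 129774127, had 0.651 in KO and 1.04 in WT (-0.68), in 0 KO and 2 WT libraries. The extremes were weak and held by 0 KO libraries. Footprint 1, at 129772200 to 129772295, had 0.158 in KO and 0.663 in WT (-2.06), and footprint 2, with the overlapping miR-19b-3p and miR-130a-3p sites, 0.461 in KO and 0.293 in WT (0.65). The footprint in the annotated 3′ UTR had 0.330 in KO and 0.304 in WT (0.12).

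Camkk2, the kinase that calcium and calmodulin switch on, had footprints on either side of its annotated end on the minus strand of chromosome 5. The footprint inside the 3′ UTR, at 123183652 to 123183729, had 0.877 in KO and 0.566 in WT (0.63) and was held by 1 KO and 2 WT libraries. The footprint past the end, at 123183126 to 123183192, had 0.111 in KO and 4.75 in WT (-5.40) and was held by 0 KO and 3 WT libraries. Its KO value was shared exactly with other footprints of the table. The footprint past the end made up 89.4% of the WT sum and 11.2% of the KO sum. With both, Camkk2 summed to 0.987 in KO and 5.32 in WT (-2.43), and without the footprint past the end the direction turned to 0.63. No AATAAA or ATTAAA was found in the 488 nt around the annotated end, from 100 nt inside it to 300 nt past the outer edge of that footprint. The footprint past the end holds TGTANAT, a short form of the Pumilio protein motif searched on the footprint's strand, as did 7.35% of all footprints and 2 footprints of Gnaq.

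Cyth1, the exchange factor for ARF GTPases, had 1 footprint, and its occupancy was the highest of the 39. It lay at 118025708 to 118025770 on the minus strand of chromosome 11, 1563 nt after the coding sequence, within the 1853-nt 3′ UTR but beyond a shorter annotated one of 1068 nt. Its occupancy was 45.8 in KO and 24.1 in WT (0.93), and it was held by all 6 libraries. The next highest members were far below, Gnaq footprint 11 in KO (4.30) and the Camkk2 footprint past the gene's end in WT (4.75). Its G+C content of 65.1% was also the highest among the members, which began at 31.3%. It held no 7-nt site of the 30 families.

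**Figure D2:**
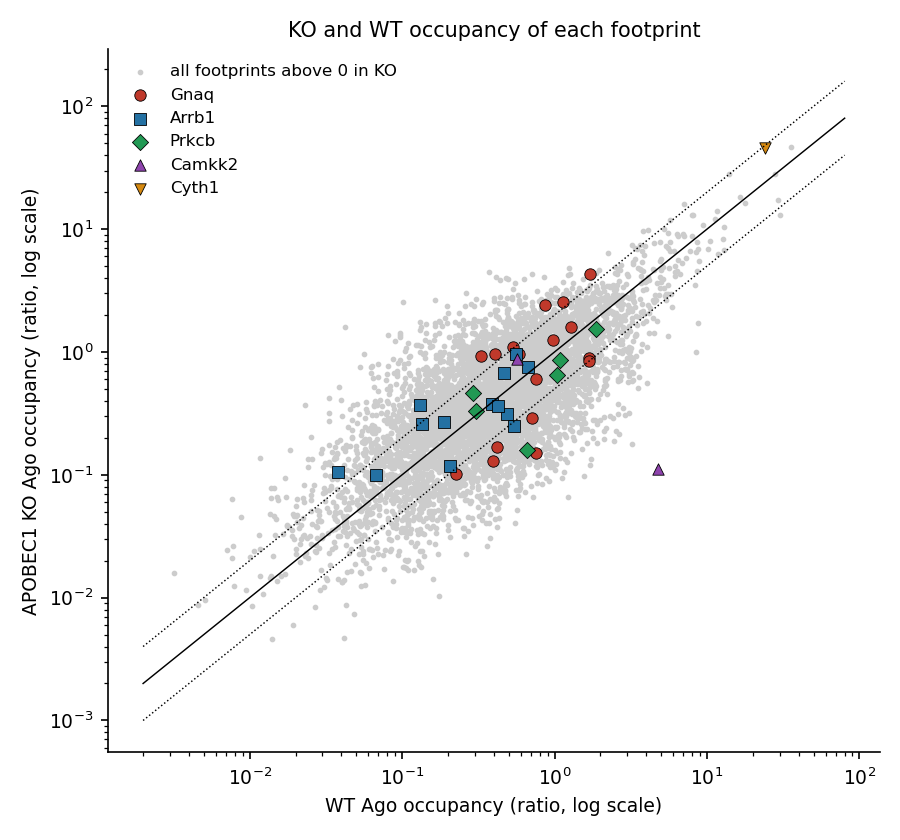
KO Ago occupancy (vertical) against WT Ago occupancy (horizontal), both ratios on log scales, for each footprint above 0 in KO (grey) and the 39 members (coloured by gene). The solid line marks equal values and the dotted lines 2-fold differences. Cyth1 stands at 45.8 in KO and 24.1 in WT, and the Camkk2 footprint past the gene's end at 0.111 in KO and 4.75 in WT.

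Over all 39 members the median log2 ratio was 0.16, against -0.04 over the table, and 21 were higher in KO, where 48.7% of the table were. A log2 ratio of at least 1 was reached by 8 members higher and 8 lower in KO, 20.5% each, against 18.9% higher and 24.2% lower in the table. The shares among the members were thus near those of all footprints. None of the 39 was listed at 0 in KO. That value was rare among all footprints too, at 290 of 6270.

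The direction moved with the number of KO libraries. Of the 8 members lower in KO by a log2 ratio of at least 1, 7 were held by 0 KO libraries, and of the 8 higher ones 0 were. The 10 members held by 0 KO libraries had a median of -1.31, the 9 held by 1 had 0.52 and the 20 held by at least 2 had 0.55. Among all footprints held by at least 2 KO libraries, 32.1% were higher by that measure and 4.37% lower. The number of libraries and the occupancy come from the same reads and are not independent. The table gives all 10 members without a KO library a KO value above 0, and the sources used here do not say how it was made. Among these 10, only the KO values of Arrb1 footprint 2 and Prkcb footprint 3 were not shared exactly with other footprints. How far the ratios of the 10 measure the size of a difference is unknown. Among the members held by all 6 libraries, 4 in Arrb1 and 1 each in Prkcb and Cyth1, 3 were higher and 3 lower, with ratios from -0.28 to 0.93. G+C content and ratio had a Spearman correlation of 0.224 over the 39 members and 0.325 over the table, where footprints share their libraries and genes. The part of base composition and of library number in the ratios was not tested.

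**Figure D3:**
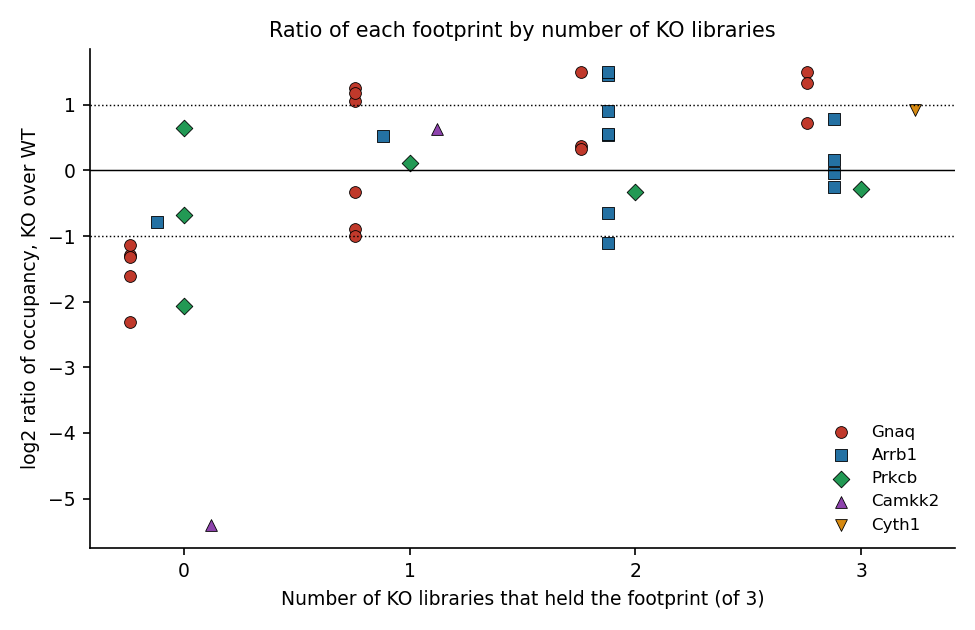
Log2 ratio of KO over WT occupancy of each of the 39 members against the number of KO libraries that held it, from 0 to 3 (points are shifted sideways by gene). The solid line marks equal values and the dotted lines a log2 ratio of 1 in either direction. Of the 10 members at 0 KO libraries 9 lie below 0, and the 6 members held by all 6 libraries, among those at 3, lie between -0.28 and 0.93.

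Members with a miRNA site had a median log2 ratio of 0.37 (11 footprints, 3 higher and 2 lower by a log2 ratio of at least 1). Members without one had -0.07 (28 footprints, 5 higher and 6 lower). In the table the medians were -0.02 with a site and -0.04 without.

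Other genes of the same pathways were taken as 7 lists with 174 symbols, none of them a member, of which 59 carried footprints. By summed occupancy 25 were higher and 34 lower in KO, where 47.8% of all genes were higher, with a median log2 ratio of -0.08 against -0.04 for all genes. A log2 ratio of at least 1 was reached by 3 genes higher and 11 lower, where 11.7% of all genes were higher and 17.9% lower. The number of KO libraries that held the footprints differed between genes, and its part in these ratios was not tested.

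Among G protein subunits 2 of 6 measured genes were higher in KO and 4 lower, with 0 past a log2 ratio of 1. Gna13, an alpha subunit, had 3.55 in KO and 2.48 in WT over 11 footprints (0.52), and the beta subunit Gnb1 had 1.70 in KO and 2.40 in WT (-0.50). The 4 measured genes that turn receptor signals off, listed with the arrestins, were all lower in KO but none by a log2 ratio of 1. The receptor kinase Adrbk1 had 1.11 in KO and 1.39 in WT (-0.33), and Rgs19, which speeds GTP hydrolysis by G alpha subunits, 0.575 in KO and 0.934 in WT (-0.70).

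The 12 measured genes of phospholipase C and calcium signalling had 4 higher and 8 lower, of which 1 and 5 passed a log2 ratio of 1. Of all genes 11.7% were higher and 17.9% lower by that measure. Most of the 5 lower genes had only footprints held by 0 KO libraries, and the difference from all genes was not tested. Calm3, a calmodulin gene, had 2.74 in KO and 2.87 in WT (-0.07). The transcription factor Nfat5 had 1.84 in KO and 0.577 in WT (1.67). Stim2, the calcium sensor of the endoplasmic reticulum, had 1 footprint, held by 0 KO libraries and listed at 0 in KO, against 1.44 in WT. Protein kinase C and diacylglycerol genes had 2 higher and 5 lower, of which 1 and 4 passed. Some of these 4 likewise had only footprints held by 0 KO libraries. Marcks, a substrate of protein kinase C, had 7.72 in KO and 6.72 in WT (0.20), and its relative Marcksl1 2.46 in KO and 6.41 in WT (-1.38). Prkcd, another kinase of the family, had 0.109 in KO and 0.354 in WT (-1.69). Rasgrp3, an exchange factor for Ras, had 0.888 in KO and 0.314 in WT (1.49).

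All 3 measured genes of the calmodulin kinase and AMPK list were higher in KO, none by a log2 ratio of 1. Camk1d, a calmodulin kinase, had 2.84 in KO and 2.21 in WT (0.37), and Prkaa1, a catalytic subunit of AMPK, 2.14 in KO and 2.06 in WT (0.05). Camk2d had 0.995 in KO and 0.588 in WT (0.76), from 1 footprint held by 0 KO libraries. Cytohesins and the ARF cycle split into 6 higher and 6 lower, and 1 of these 12 passed, Git1, a GTPase-activating protein for ARF (0.164 in KO and 0.416 in WT, -1.34). Arf6, the GTPase at the plasma membrane, had 5.31 in KO and 4.43 in WT (0.26), the exchange factor Arfgef2 3.89 in KO and 6.25 in WT (-0.68), and Asap1 2.63 in KO and 1.69 in WT (0.64).

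Of 15 measured receptors 8 were higher and 7 lower in KO, with 1 past a log2 ratio of 1 each way. S1pr2, a receptor for sphingosine 1-phosphate, had the highest ratio, with 3.75 in KO and 1.71 in WT (1.13), and 7 of its 8 footprints were higher. C3ar1, a complement receptor, was the most occupied, with 49.7 in KO and 39.5 in WT over 5 footprints (0.33), and only 1 of these was higher in KO. Ptger4, a receptor for prostaglandin E2, had 3.76 in KO and 4.94 in WT (-0.39).

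**Figure D4:**
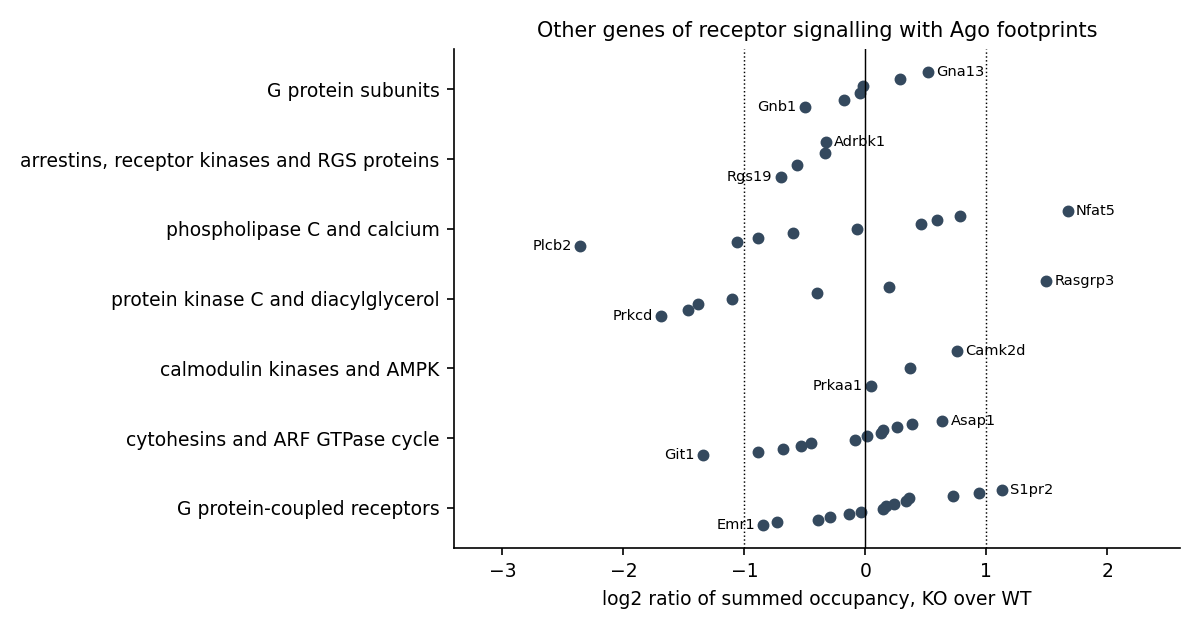
Log2 ratio of summed Ago occupancy, KO over WT, for other genes of each pathway list that were above 0 in KO (1 point per gene, no error bars). The lowest and highest gene shown of each list is named, the solid line marks equal values and the dotted lines a log2 ratio of 1 in either direction. Plcb2, with 1 footprint held by 0 KO libraries, lies lowest at -2.36 and Nfat5 highest at 1.67.

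Genes whose summed occupancies were most like those of the members were found by the distance between the log2 sums in KO and in WT, over these 2 values and among genes with at least 3 footprints. The nearest were Slc23a2 to Gnaq (18.0 in KO and 14.8 in WT, distance 0.11), Elmo1 to Arrb1 (4.78 in KO and 4.26 in WT, 0.04) and Lamp2 to Prkcb (4.02 in KO and 5.26 in WT, 0.01). For Camkk2 the nearest was Rmnd5a (0.766 in KO and 5.51 in WT, 0.37), and for Cyth1 it was Plekhm3 (35.1 in KO and 26.4 in WT, 0.41). The Camkk2 sums used here include the footprint past the gene's end, which made up 89.4% of the WT sum. The second nearest were Slc16a10 to Gnaq, Nrp1 to Arrb1, Mbnl2 to Prkcb, Agfg1 to Camkk2 and Ccnd1 to Cyth1. Sums are not divided by 3′ UTR length, and a likeness over 2 values says little about a gene.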

How the data were processed

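Ago HITS-CLIP libraries of macrophages from 3 KO and 3 WT mice were grouped by the labels. The authors, as the series design text states, aligned reads to mm9, joined overlapping mRNA reads into clusters, took a footprint at each peak, and deposited its Ago occupancy as a ratio to RNA-Seq transcript expression. Tools named per the submitters' processing notes are Bowtie 0.12.8 and bedtools. The deposited table also holds other whole numbers, the libraries per genotype with the footprint (0 to 3). The sources used here do not say how libraries were combined or scaled, and depth is unknown.

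Coordinates (BED, per the file headers) were made 1-based and placed on GENCODE vM1 (NCBIM37, the mm9 assembly) with pysam 0.24.0. Each of the 39 member sequences occurred once in the genome, and 0 had an annotated gene on the opposite strand. Of the 39, 12 KO values and 7 WT values were shared exactly with another footprint. Log2 ratios of KO over WT used a pseudocount of 0.00161 (50% of the smallest value above 0) and no filter, and understate differences of weak footprints. A log2 ratio of 1 replaced a test, since each genotype has 1 value. The ratio and the seed search were tested on simulated data. Distances run from the first base after the coding sequence of the transcript with the longest 3′ UTR.

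Members and lists were chosen with earlier results of these data known. Named were, per gene, footprints held by all 6 libraries, the 3 strongest, and the highest and lowest ratio. From each list they were the 2 strongest genes and the highest and lowest ratio. Some genes that this takes are not reported here. Gnaq footprints 4, 8 and 10 and Arrb1 footprint 8 are named for their sites, and Gnaq footprints 5 and 6 also for their order. Alternatives covered pseudocounts, filters, sums, scaling and site definitions.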

Additional observations from a re-analysis of the deposited data

How the results depend on the processing

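Of 77 alternative values for 10 results, 61 stayed within 1.5-fold of the reported one, 15 moved further and 1 reversed. Some of the 61 could not move. The filter for values above 0 in both genotypes kept all 39 members, and several settings returned the single Cyth1 footprint. With a pseudocount of 0.1 the members lower in KO numbered 5, and with a pseudocount of 1 there were 0 higher and 1 lower and the Camkk2 log2 ratio was -1.67. Of the 23 members that reached the table's median of mean occupancy 3 were lower. Among the 18 members held by at least 2 libraries of both genotypes, which leaves out footprints low in KO, 4 were higher and 1 lower. Without Gnaq 2 of the remaining 22 were higher and 3 lower. Counts were compared as counts and not as shares, so leaving members out can move them by itself. By the strongest footprint the log2 ratio was 1.33 for Gnaq, 0.79 for Arrb1 and -5.40 for Camkk2, and without its strongest footprint Camkk2 reversed to 0.63. A site was present in 23 members with 6-nt matches, 59.0% against 54.1% of all footprints. With 8-nt matches it was present in 6, 15.4% against 8.61%. Without Arrb1 9 of the remaining 26 members were held by at least 2 KO libraries, an alternative added after seeing the data. The median log2 ratio of the members, which was positive under the other alternatives, was -0.08 without Arrb1. The table's median log2 ratio was -0.04, so scaling KO to a median of 0 could not move a log2 ratio by 1.5-fold. The counts past a log2 ratio of 1 stayed at 8 higher and 8 lower. The causes were not tested. No paired analysis was possible because the table holds 1 combined value per genotype, and for the same reason no library could be left out. Unknown depth limits all values of weak footprints.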
